A study of Mus musculus with 6 samples.

Results

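The integrated stress response genes examined here are 10 genes of the ATF4 pathway, listed by name because their transcripts are known to rise when cells run short of serine or other amino acids: Atf4, Atf5, Ddit3, Asns, Chac1, Trib3, Sesn2, Ddit4, Atf3 and Ppp1r15a. They were found by symbol in the gene table, where they took up 11 of the 36065 records, because Ddit3 had 2 records whose values were summed. RNA had been sequenced from wild-type (WT) mouse 1-cell embryos in vitro culture under 3 conditions: CBR-5884, an inhibitor of serine metabolism known for its action on the serine synthesis enzyme PHGDH, together with S-adenosylmethionine, the methyl donor (CBR+SAM); CBR-5884 alone (CBR); and DMSO, the solvent control (DMSO). Each group had 2 biological replicates, 6 libraries in all. The labels give no dose, hours of culture, mouse strain or number of embryos per library, and there was no group with S-adenosylmethionine alone.

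The integrated stress response starts when 1 of several kinases phosphorylates the initiation factor eIF2, which slows translation in general and favours the translation of a few mRNAs with upstream reading frames, Atf4 among them. The ATF4 protein then raises transcription of genes for amino acid synthesis, amino acid import and growth control, and PPP1R15A closes the loop by bringing a phosphatase to eIF2. Control of ATF4 itself is largely translational, so an mRNA level of Atf4 does not measure ATF4 protein, whereas its target genes respond in mRNA. The early mouse zygote lives mostly on mRNA stored by the oocyte and transcribes little before its first division.

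ATF4 acts at the C/EBP-ATF response element, and the promoters that carry its core are shown because their genes are the classical readouts of the pathway. The core was searched as TGATGNAA, and as TTNCATCA for the other strand, in the 300 bases of RefSeq promoters in build GRCm38.p6 that run from 250 bases before to 50 bases after each annotated start. All 10 genes had an entry, with 11 entries in total because Atf5 had 2. The core was present for 4 of the 10 genes, while 3.97% of all 32851 promoter entries held it. The 4 stretches follow, 5′ to 3′ on the strand of the gene, with the core in capitals.
Asns (chr6:7693214-7693243, minus strand): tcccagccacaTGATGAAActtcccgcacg
Atf3 (chr1:191183425-191183454, minus strand): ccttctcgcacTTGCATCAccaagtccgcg
Chac1 (chr2:119351038-119351067, plus strand): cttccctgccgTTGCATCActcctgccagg
Trib3 (chr2:152344028-152344057, minus strand): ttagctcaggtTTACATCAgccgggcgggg
With the first transcribed base counted as position 0, the core began at position -23 in Asns, -110 in Atf3, -193 in Chac1 and 14 in Trib3. Asns carried it on the strand of the gene, and the other three on the opposite strand. A match of letters is a description of the window and does not show binding, and the 6 genes without a match may carry the element elsewhere.

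Levels are given as the deposited signal, an abundance divided by transcript length, so that genes can be compared with each other within a library. The columns summed to between 956209 and 1059424. Depth was not given. Judged by how low signals are spaced in genes that have 1 annotated transcript, a signal of 1 stood for roughly 21 to 26 reads per kilobase, a figure that is approximate because 67.4% to 71.5% of those signals came within 0.1 of a whole read. CBR+SAM replicate 2 stood apart: over all tested genes, the SD of its log2 difference from the mean of the 4 libraries of the other groups was 0.442, while the same measure was 0.284 to 0.32 for the other 5 libraries. All 8 zygote markers reached a signal of 1 in at least 2 libraries, with summed signals of 38422 to 47141 in CBR+SAM, 39854 to 40878 in CBR and 36466 to 37721 in DMSO. Of the 9 cumulus cell markers 2 reached a signal of 1 in at least 2 libraries, and the list's sum was 237 to 616 in CBR+SAM, 580.0 to 581 in CBR and 509 to 533 in DMSO, most of it Serpine2, which was 602 and 224.5 in CBR+SAM. Of the 5 sperm markers 1, Prm2, reached a signal of 1 in at least 2 libraries. Their sum lay between 10.3 and 15.5 in CBR+SAM, 14.8 and 15.2 in CBR and 12.6 and 13.2 in DMSO. Most of it was Prm2, at 9.86 to 14.7, and Tnp1 was listed at 0 in every library. Oviduct markers summed to 3.16 to 4.14 in CBR+SAM, 2.65 to 3.30 in CBR and 2.99 to 3.30 in DMSO. Blood cell markers summed to 0.701 or less in every library. The part of these cells in the results was not tested.

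The 10 genes fell into a moderately abundant set and a low set. Averaged over the 6 libraries, Ddit3 stood highest at a signal of 50.1, followed by Atf4 at 29.4, Ppp1r15a at 14.96 and Ddit4 at 10.2. Asns followed at 0.999, Atf3 at 0.790, Chac1 at 0.785, Atf5 at 0.186, Sesn2 at 0.131 and Trib3 at 0.115. Ddit3 lay above Atf4, and Atf4 above Ppp1r15a, in 6 of 6 libraries with ranges that did not overlap. Ppp1r15a and Ddit4 had overlapping ranges, and so had Asns, Atf3 and Chac1 among themselves, as well as Atf5, Sesn2 and Trib3. Ddit3 and Atf4 together made up 70.4% to 76.5% of the summed signal of the 10 genes in each library. The 4 genes with the response element in the window all belonged to the low set, at a highest signal of 1.58.

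The comparison of CBR with DMSO asks whether blocking serine metabolism was accompanied by the transcript changes of the stress response. A signal of at least 1 in at least 2 libraries was required for testing, which 5 of the 10 genes met: Atf4, Ddit3, Asns, Ddit4 and Ppp1r15a. None of the 5 passed an adjusted threshold of 0.05 in any of the 3 comparisons (limma, Benjamini-Hochberg over the 12248 genes tested), and 0 passed in any of the alternatives tried. Among all genes the share passing was 0% in CBR against DMSO. It was 0.00816% when CBR+SAM was set against CBR and 0.00816% when it was set against DMSO, in each case 1 gene, the pseudogene Gm16550, named after its values were seen. At an unadjusted p under 0.05 by limma, 0 of the 5 genes stood higher or lower in CBR than in DMSO, against 0.808% and 1.31% of all genes. That 0 depended on the setting, because Ppp1r15a lay close to the cut. It was higher in CBR at that level in the fit without the filter. The same held when only the 4 libraries of CBR and DMSO were fitted. Under the other alternatives that kept all 6 libraries, Ppp1r15a stayed outside the cut. In CBR+SAM against CBR 1 of the 5, Ppp1r15a, was lower at that level, against 1.36% of all genes, and in CBR+SAM against DMSO it was 0 of 5, against 1.00% higher and 1.13% lower. The comparisons share groups and are not independent.

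**Figure D1:**
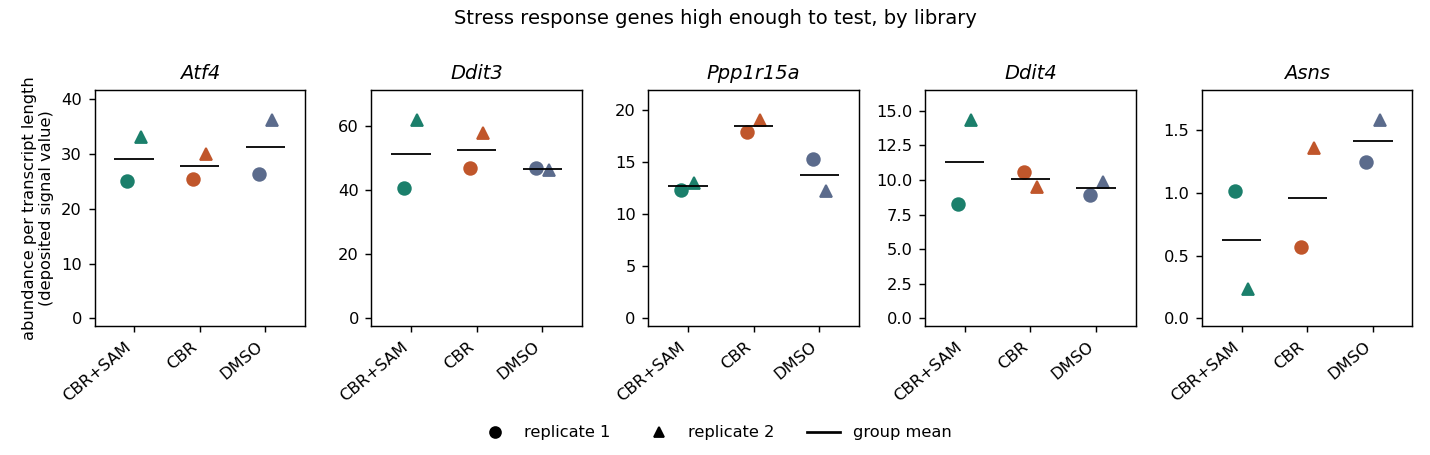
Signal of the 5 tested genes in each library, with 1 panel per gene, CBR+SAM, CBR and DMSO from left to right, circles for replicate 1, triangles for replicate 2 and a bar for the mean of 2 libraries; axes are linear and start near 0. The CBR points of Ppp1r15a, 17.9 and 19.0, lie above all other libraries, while the groups of Atf4 and Ddit4 overlap.

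Atf4 encodes the transcription factor at the centre of the pathway. Its signal was 25.0 and 33.2 in CBR+SAM, 25.5 and 30.1 in CBR, and 26.4 and 36.2 in DMSO. The groups overlapped, and within every group replicate 2 was the higher library. The log2 change, on log2(signal + 1), was -0.16 in CBR against DMSO (SE 0.22, 95% interval -0.67 to 0.36, adjusted p = 1 by limma). It was 0.06 in CBR+SAM against CBR (interval -0.46 to 0.57) and -0.10 in CBR+SAM against DMSO (interval -0.62 to 0.42). All 3 intervals lie inside a doubling or halving on the log2 scale. The gene (ENSMUSG00000042406) lies on chromosome 15 at 80255184 to 80257541 of mm10.

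Atf5, a related factor that is also translated selectively under stress and is known for its part in the mitochondrial stress response, was close to the limit of detection. It stood at 0.102 and 0.162 in CBR+SAM, 0.0901 and 0.237 in CBR, and 0.314 and 0.210 in DMSO, which would be about 3 to 13 reads if all came from its longest transcript. Both CBR+SAM libraries lay below both DMSO libraries, at a level too low for the test. Its exons share 82 bases with those of Nup62 and Il4i1 on the opposite strand, and the library kit is not described as marking strand. Atf5 lies on chromosome 7 at 44812256 to 44816658.

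Ddit3 encodes CHOP, the factor that ATF4 induces when stress persists. Its summed signal was 40.6 and 61.8 in CBR+SAM, 47.0 and 57.8 in CBR, and 46.9 and 46.3 in DMSO. Both CBR libraries lay above both DMSO libraries, the first of them by a margin of 46.99 against 46.86. The log2 change was 0.16 in CBR against DMSO (SE 0.22, 95% interval -0.36 to 0.68, adjusted p = 1 by limma), -0.05 in CBR+SAM against CBR (interval -0.58 to 0.47) and 0.10 in CBR+SAM against DMSO (interval -0.42 to 0.63). CBR+SAM held both the lowest and the highest library, so the second of these changes was 0.24 without CBR+SAM replicate 1 and -0.35 without CBR+SAM replicate 2.

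The direction of Ddit3 depended on its short record. The main record (ENSMUSG00000025408, chromosome 10 at 127290774 to 127296288) stood at 39.9 and 58.7 in CBR+SAM, 38.6 and 42.0 in CBR, and 46.9 and 46.3 in DMSO, so that both CBR libraries were below both DMSO libraries. The short record (ENSMUSG00000116429, chromosome 10 at 127290829 to 127293753) stood at 0.663 and 3.09 in CBR+SAM and at 8.37 and 15.7 in CBR, and was listed at 0 in both DMSO libraries. With the main record alone the log2 change was -0.20 in CBR against DMSO and 0.26 in CBR+SAM against CBR, the opposite sign to the sum in each, with an adjusted p of 1 and 0.988 by limma.

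The annotation shows what the short record is. It consists of 2 exons with 105 bases in all, and all 105 lie within the exons of an 890-base transcript of the main record. It begins with ATG and holds 34 codons before an in-frame stop, and it occupies bases 56 to 160 of that transcript, upstream of the main coding sequence, which begins at base 187. The upstream reading frame of Ddit3 is known to restrain translation of CHOP in unstressed cells, and here it is annotated as a gene of its own. Reads from this stretch can come from either record, so their division between the records is uncertain. The record is also shorter than the fragment length of 200 bases assumed for other genes, so its signal could not be turned into reads, and on a scale divided by length its share of the sum, 17.8% and 27.2% in CBR, does not give its share of the reads. A further 68 bases of Ddit3 exons are shared with the opposite-strand gene Mars.

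**Figure D2:**
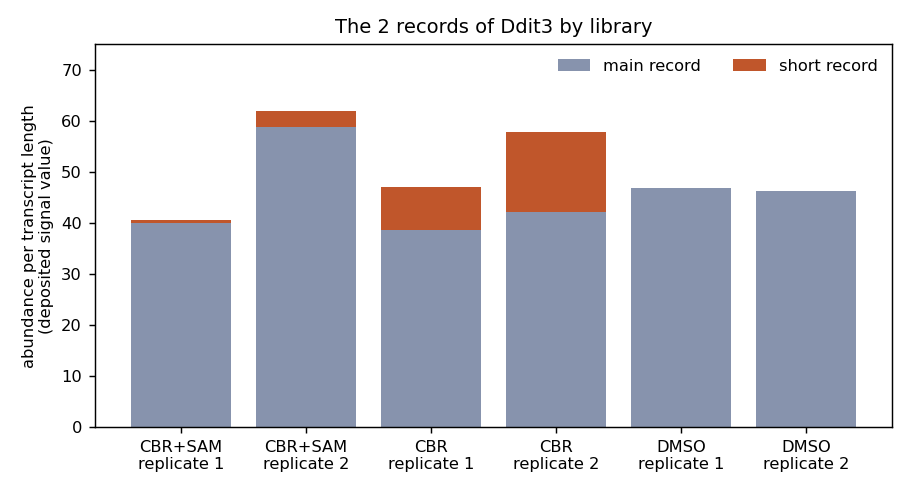
Signal of the main record of Ddit3 and of its short upstream record, stacked, in each of the 6 libraries. The short record adds 8.37 and 15.7 in the CBR libraries, 0.663 and 3.09 in the CBR+SAM libraries and 0 in the DMSO libraries.

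Atf3, a stress-inducible factor of the same protein class that curbs and prolongs parts of the response, stood at 0.953 and 0.838 in CBR+SAM, 0.635 and 0.727 in CBR, and 0.553 and 1.03 in DMSO. Both CBR+SAM libraries lay above both CBR libraries, and the DMSO libraries spanned all of them. The gene lies on chromosome 1 at 191170296 to 191218039, and its levels correspond to about 25 to 42 reads if all came from its longest transcript.

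Among the metabolic targets, Asns, which makes asparagine and is a standard readout of amino acid shortage, had its highest mean in DMSO. It stood at 1.02 and 0.231 in CBR+SAM, 0.569 and 1.36 in CBR, and 1.24 and 1.58 in DMSO. Both CBR+SAM libraries lay below both DMSO libraries, while CBR overlapped with each of the other groups. The log2 change was -0.32 in CBR against DMSO (SE 0.32, 95% interval -1.09 to 0.44, adjusted p = 1 by limma). It was -0.29 in CBR+SAM against CBR (interval -1.05 to 0.48) and -0.61 in CBR+SAM against DMSO (interval -1.38 to 0.15). At signals near 1 the added 1 compresses these changes. With 0.1 added instead they were -0.61 in CBR against DMSO (interval -2.29 to 1.07), -0.70 in CBR+SAM against CBR (interval -2.38 to 0.98) and -1.31 in CBR+SAM against DMSO (interval -2.99 to 0.37). Leaving out CBR+SAM replicate 2, which had the lowest signal of Asns, gave -0.26 for CBR+SAM against DMSO with 1 added, and leaving out CBR replicate 1 or 2 gave -0.03 or -0.62 for CBR against DMSO. Asns lies on chromosome 6 at 7675169 to 7693254.

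Chac1, which degrades glutathione and is among the most inducible ATF4 targets, stood at 1.02 and 0.580 in CBR+SAM, 0.479 and 0.952 in CBR, and 0.783 and 0.892 in DMSO. The groups overlapped in all 3 comparisons. With a single transcript of 1637 bases these levels correspond to about 15 to 37 reads. Chac1 lies on chromosome 2 at 119351229 to 119354381.

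The genes that link the response to kinase signalling and growth were low in the case of Trib3 and Sesn2 and moderate in the case of Ddit4. Trib3, a pseudokinase that binds AKT and ATF4, was listed at 0 and stood at 0.0422 in CBR+SAM, against 0.144 and 0.170 in CBR and 0.217 and 0.116 in DMSO. The CBR+SAM libraries were the lowest of the 6, at an estimated 0 and 2 reads against 6 and 8 in CBR and 10 and 4 in DMSO if all came from the longest transcript. A fit without the filter gave log2 changes of -0.18 in CBR+SAM against CBR (95% interval -0.33 to -0.03, adjusted p = 0.935 by limma) and -0.19 in CBR+SAM against DMSO (interval -0.35 to -0.04, adjusted p = 0.981). Both intervals leave out 0, neither change passed the adjusted threshold, and both rest on these few reads. Sesn2, a sensor of leucine that restrains mTORC1, stood at 0.112 and 0.0847 in CBR+SAM, 0.0963 and 0.118 in CBR, and 0.276 and 0.102 in DMSO. DMSO replicate 1 was the highest with about 23 reads, against about 7 to 10 reads in the other 5 libraries. Trib3 lies on chromosome 2 at 152337422 to 152344032 and Sesn2 on chromosome 4 at 132492032 to 132510501.

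Ddit4, known as REDD1, which restrains mTORC1 through the TSC complex, stood at 8.25 and 14.3 in CBR+SAM, 10.55 and 9.52 in CBR, and 8.93 and 9.86 in DMSO. The CBR+SAM group again held both the lowest and the highest library, and no groups were separate. The log2 change was 0.09 in CBR against DMSO (SE 0.25, 95% interval -0.51 to 0.69, adjusted p = 1 by limma). It was 0.11 in CBR+SAM against CBR (interval -0.49 to 0.71), with -0.25 left when CBR+SAM replicate 2 was removed. In CBR+SAM against DMSO it was 0.20 (interval -0.40 to 0.80), with -0.17 left on the same removal. Ddit4 lies on chromosome 10 at 59949669 to 59951834.

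**Figure D3:**
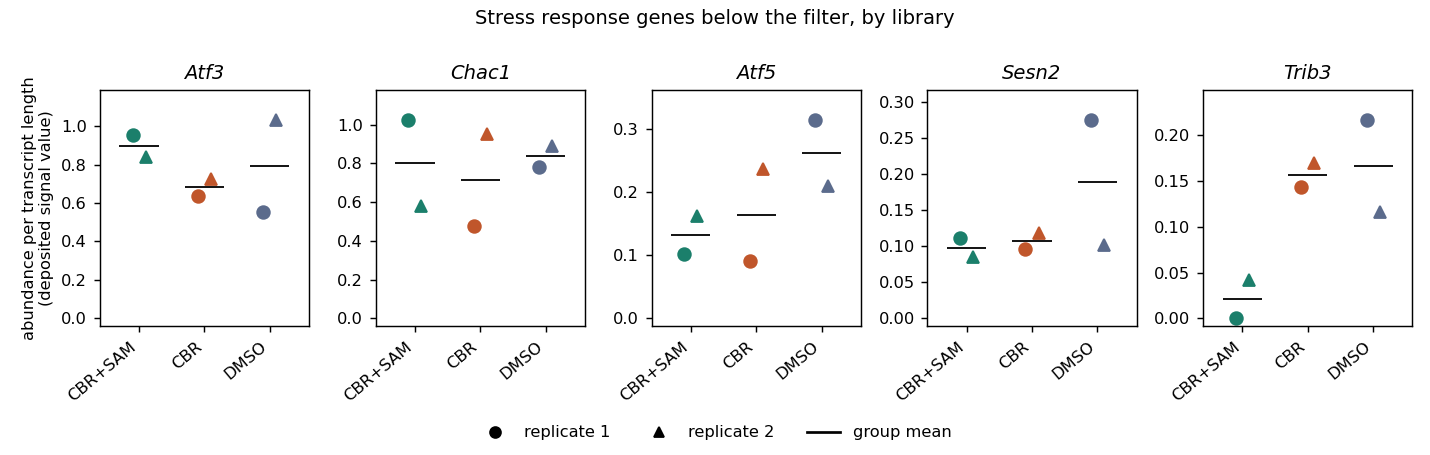
Signal of the 5 genes below the filter in each library, drawn as for the tested genes, with circles for replicate 1, triangles for replicate 2 and a bar for the mean of 2 libraries. Trib3 is listed at 0 in CBR+SAM replicate 1 and reaches 0.0422 in CBR+SAM replicate 2, against 0.116 to 0.217 in the other libraries.

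Ppp1r15a, also called GADD34, encodes the stress-inducible subunit that directs protein phosphatase 1 to eIF2 and so ends the response. Its signal was 12.3 and 12.98 in CBR+SAM, 17.9 and 19.0 in CBR, and 15.3 and 12.2 in DMSO. Both CBR libraries lay above all 4 others, and the CBR+SAM libraries fell within the span of the DMSO libraries. How many of all genes have 1 group apart from the other 4 libraries was not counted, for this gene or any other named here. In means the signal of Ppp1r15a was 12.7 ± 0.447 in CBR+SAM, 18.5 ± 0.818 in CBR and 13.8 ± 2.19 in DMSO (SD, n = 2 each). The log2 change was 0.40 in CBR against DMSO (SE 0.17, 95% interval -0.01 to 0.81, adjusted p = 1 by limma) and -0.51 in CBR+SAM against CBR (SE 0.17, interval -0.92 to -0.10, adjusted p = 0.988 by limma). It was -0.11 in CBR+SAM against DMSO (interval -0.52 to 0.31). The first of these changes ran from 0.25 without DMSO replicate 2 to 0.56 without DMSO replicate 1, and the second from -0.55 without CBR replicate 1 to -0.47 without CBR replicate 2. Neither passed the adjusted threshold under any alternative. Both CBR libraries lay above both DMSO libraries for 2 of the 5 genes, Ddit3 and Ppp1r15a, and for 15.7% of all genes tested, and below them for 0 of 5 and 17.3% of all genes. With the main record of Ddit3 in place of the sum, the counts were 1 above, Ppp1r15a, and 1 below, Ddit3. Both CBR+SAM libraries lay below both CBR libraries for 1 of 5, Ppp1r15a, and for 12.5% of all genes, and above them for 0 of 5 and 15.0% of all genes. Set against DMSO, CBR+SAM was separate and lower for 1 of 5, Asns, and for 12.1% of all genes, and separate and higher for 0 of 5 and 12.4% of all genes. With only 5 genes nothing particular to them is read from these counts. The 5 genes below the filter are outside these counts and shares. Among them CBR+SAM was separate and lower for Trib3 against CBR, and for Atf5 and Trib3 against DMSO. It was separate and higher for Atf3 against CBR. In CBR against DMSO their groups overlapped. The share of all genes below the filter with separate groups was not counted, so nothing is read from these separations. Ppp1r15a lies on chromosome 7 at 45522916 to 45526268.

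**Figure D4:**
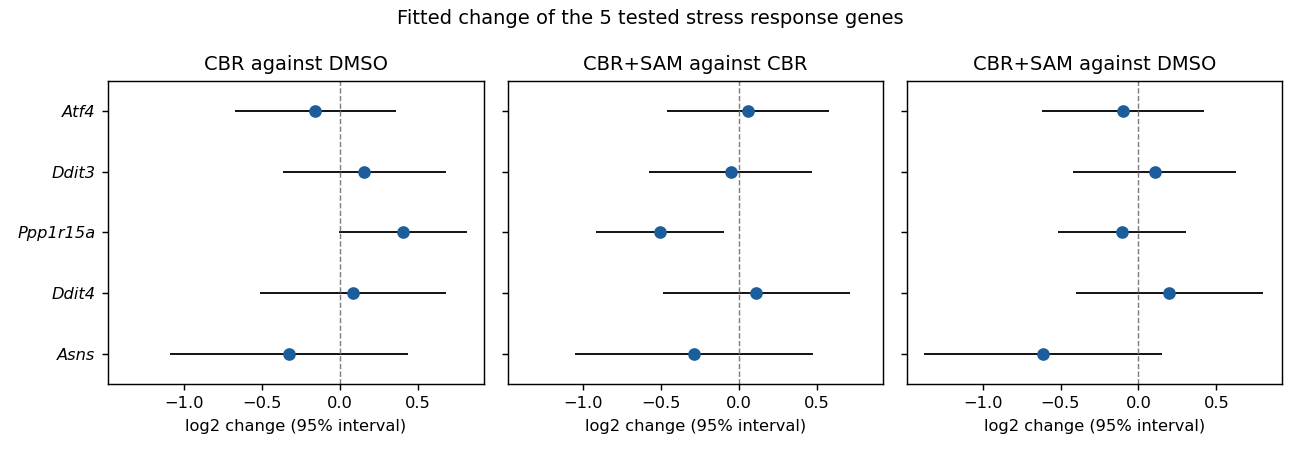
Fitted log2 change of the 5 tested genes on log2(signal + 1), with 95% intervals from limma, for CBR against DMSO, CBR+SAM against CBR and CBR+SAM against DMSO from left to right. The interval of Ppp1r15a runs from -0.92 to -0.10 in the middle panel, and every other interval includes 0.

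Taken over the 5 tested genes, 3 had positive and 2 negative changes in CBR against DMSO, with a median of 0.09 on the log2 scale, against -0.01 over all genes. With the main record of Ddit3 in place of the sum, 2 were positive and 3 negative, with a median of -0.16. The median was -0.05 in CBR+SAM against CBR (0.06 with the main record), against 0.01 over all genes, and -0.10 in CBR+SAM against DMSO, against -0.005 over all genes. Without CBR+SAM replicate 2 the medians of the comparisons with CBR+SAM were -0.25 and -0.19, and without CBR+SAM replicate 1 they were 0.24 and 0.10.

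Some relatives of the low genes, chosen after their levels were seen, were more abundant in these embryos, and others were not. Chac2, the constitutive relative of Chac1, ranged from 47.2 to 59.9 over the 6 libraries, where Chac1 ranged from 0.479 to 1.02. Sesn3 ranged from 5.53 to 10.8, where Sesn2 ranged from 0.0847 to 0.276, and Sesn1 averaged 0.355 and was above Sesn2 in 5 of 6 libraries. Trib2 ranged from 6.31 to 8.39, where Trib3 reached at most 0.217, and Trib1 averaged 0.385. Jdp2, a relative of Atf3, averaged 0.0546 against 0.790 for Atf3. Chac2, Sesn3 and Trib2 each exceeded their stress-inducible relative in 6 of 6 libraries. The opposite held for Ppp1r15a and Ddit4: the constitutive phosphatase subunit gene Ppp1r15b averaged 1.16 against 14.96 for Ppp1r15a, and Ddit4l averaged 0.600 against 10.2 for Ddit4. Ppp1r15b had a log2 change of -0.001 in CBR against DMSO (95% interval -0.55 to 0.55).

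The rest of the pathway was described by 7 gene lists with 102 genes in the table, of which 78 were high enough to test. None of them passed the adjusted threshold in any comparison (limma), with 0 of 78 at an unadjusted p under 0.05 in CBR against DMSO, where 0.808% of all genes were higher and 1.31% lower. In CBR against DMSO 37 changes were positive and 41 negative, and 48.3% of all genes had a positive change. In CBR+SAM against CBR the counts were 35 and 43, with 52.4% of all genes positive. Against DMSO, CBR+SAM had 31 and 47, with 48.9% of all genes positive.

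The kinases that start the response were all detected. Eif2ak3 (PERK, the kinase of the endoplasmic reticulum) stood at 40.3 and 38.0 in CBR+SAM, 42.9 and 29.2 in CBR, and 41.7 and 25.4 in DMSO, with a log2 change of 0.26 in CBR+SAM against DMSO (95% interval -0.38 to 0.90). Eif2ak4 (GCN2, the kinase that senses uncharged tRNA) stood at 11.1 and 14.2 in CBR+SAM, 12.8 and 11.1 in CBR, and 11.3 and 11.7 in DMSO, with a log2 change of 0.05 in CBR against DMSO (95% interval -0.39 to 0.48). Eif2ak1 (HRI, the heme-regulated kinase) stood at 10.9 and 9.71 in CBR+SAM, 11.5 and 8.89 in CBR, and 12.4 and 12.7 in DMSO, so that DMSO was the highest group, with a log2 change of -0.28 in CBR against DMSO (interval -0.72 to 0.15). Eif2ak2 (PKR, the kinase of double-stranded RNA) was low, at a mean of 1.27, with a change of 0.14 in CBR+SAM against CBR (interval -0.39 to 0.67). Gcn1l1, the partner through which GCN2 senses stalled ribosomes, was abundant at a mean of 166 and had a log2 change of -0.20 in CBR+SAM against CBR (interval -0.59 to 0.19). Impact, an inhibitor of GCN2, had a change of -0.16 in CBR against DMSO (interval -0.60 to 0.29). Of the 7 tested genes of this list 3 were higher and 4 lower in CBR than in DMSO.

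Among genes of eIF2 and of its exchange factor eIF2B, 5 were higher and 4 lower in CBR than in DMSO. Eif2b2, a regulatory subunit of eIF2B, stood at 12.7 and 14.3 in CBR+SAM, 7.27 and 10.3 in CBR, and 8.91 and 10.03 in DMSO. Both CBR+SAM libraries were the highest of the 6. The log2 change was 0.47 against DMSO (95% interval -0.01 to 0.96), and in CBR+SAM against CBR it was 0.58 (95% interval 0.10 to 1.07, adjusted p = 0.988 by limma), and it was the 1 gene of the 78 at an unadjusted p under 0.05 there, against 1.73% of all genes higher and 1.36% lower. Eif2b5, the catalytic subunit, had a change of 0.53 in CBR against DMSO (interval -0.14 to 1.196) and 0.35 in CBR+SAM against DMSO (interval -0.32 to 1.02). Eif2b1 was the most abundant eIF2B gene next to an equally abundant Eif2s2, at means of 613 and 632, and had a change of -0.36 in CBR+SAM against CBR (interval -0.89 to 0.17). Eif2a, a separate initiation factor despite its name, had a change of 0.29 in CBR against DMSO (interval -0.05 to 0.63).

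ATF4 raises the targets for amino acid import and serine synthesis in other cells when serine is short. Here they had 6 positive and 9 negative changes in CBR against DMSO, with a median of -0.02. The counts were 8 and 7 without CBR replicate 1, CBR replicate 2 or DMSO replicate 2, with medians of 0.03, 0.002 and 0.03. Without DMSO replicate 1 they were 7 and 8, with a median of -0.03. In CBR+SAM against CBR they were 10 and 5, and 8 and 7 or 9 and 6 with 1 library left out. Phgdh stood at 4.29 and 6.05 in CBR+SAM, 4.81 and 4.28 in CBR, and 4.34 and 5.95 in DMSO. Psph, which releases serine in the last step, stood at 6.83 and 5.28 in CBR+SAM, 4.90 and 4.41 in CBR, and 4.78 and 6.03 in DMSO, with a log2 change of 0.31 in CBR+SAM against CBR (95% interval -0.18 to 0.80). Psat1, the transaminase between them, was below the filter, at 0.113 and 0.0842 in CBR+SAM, 0.258 and 0.245 in CBR, and 0.0962 and 0.0665 in DMSO. Both CBR libraries were the highest of the 6, at signals too low for the test. Its reads were not estimated, and the share of genes this low with 1 group apart was not counted. Shmt2, which turns serine into glycine in mitochondria, had changes of 0.22 in CBR against DMSO (interval -0.18 to 0.61) and -0.24 in CBR+SAM against CBR (interval -0.64 to 0.15). Cth, which makes cysteine, had changes of 0.25 in CBR against DMSO (interval -0.18 to 0.69) and 0.32 in CBR+SAM against DMSO (interval -0.11 to 0.75), and the proline synthesis gene Aldh18a1 one of 0.27 in CBR+SAM against DMSO (interval -0.27 to 0.81).

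The aminoacyl-tRNA synthetase targets, which charge tRNA with amino acids, had 6 positive and 6 negative changes in CBR against DMSO and 2 positive and 10 negative ones in CBR+SAM against DMSO. Iars had a log2 change of -0.33 in CBR against DMSO (95% interval -0.76 to 0.09) and -0.34 in CBR+SAM against DMSO (interval -0.77 to 0.09), and Lars one of -0.21 in CBR against DMSO (interval -0.58 to 0.17). Sars, the synthetase for serine, stood at 47.2 and 28.8 in CBR+SAM, 54.3 and 50.8 in CBR, and 45.5 and 43.0 in DMSO, with a change of -0.50 in CBR+SAM against CBR (interval -1.04 to 0.05). Nars had a change of -0.43 in CBR+SAM against CBR (interval -1.02 to 0.16), and Cars one of 0.45 in CBR+SAM against DMSO (interval -0.09 to 0.98). The counts of the list depended on single libraries. For CBR+SAM against DMSO they were 6 positive and 6 negative without CBR+SAM replicate 2, with a median of 0.03. They were 5 and 7 without CBR+SAM replicate 1 or without DMSO replicate 2, with medians of -0.11 and -0.12. Without DMSO replicate 1 they were 3 and 9, with a median of -0.19. For CBR+SAM against CBR they were 3 and 9, and 5 and 7 without either CBR+SAM library. They were 4 and 8 without CBR replicate 1 and 3 and 9 without CBR replicate 2. For Sars and Nars the low value was that of CBR+SAM replicate 2.

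The secreted, survival and autophagy targets had 5 positive and 2 negative changes in each of the 3 comparisons. With any 1 of the 4 compared libraries left out, the counts were 4 and 3 in CBR against DMSO. In CBR+SAM against CBR they were then 3 and 4. In CBR+SAM against DMSO they were 3 and 4 without CBR+SAM replicate 2 or DMSO replicate 2. There they were 4 and 3 without CBR+SAM replicate 1, and 5 and 2 without DMSO replicate 1. Eif4ebp1, which blocks cap-dependent translation, stood at 2.74 and 3.41 in CBR+SAM, 4.58 and 3.83 in CBR, and 3.04 and 2.73 in DMSO. Both CBR libraries lay above the other 4. How many of all genes have 1 group apart from the other 4 libraries was not counted. Eif4ebp1 was named for its small p in this list. It had log2 changes of 0.42 in CBR against DMSO (95% interval -0.06 to 0.89, adjusted p = 1 by limma) and -0.35 in CBR+SAM against CBR (interval -0.83 to 0.12, adjusted p = 0.988 by limma). The autophagy receptor gene Sqstm1 had changes of 0.21 in CBR against DMSO (interval -0.31 to 0.74) and 0.28 in CBR+SAM against DMSO (interval -0.25 to 0.80). Ero1l, an oxidase of the endoplasmic reticulum, had changes of -0.52 in CBR+SAM against CBR (interval -1.33 to 0.30) and -0.43 in CBR+SAM against DMSO (interval -1.24 to 0.39). The secreted stress hormone genes Fgf21 and Gdf15 stayed below the filter, at means of 0.186 and 0.662, and Bbc3 was listed at 0 in every library.

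The other arms of the unfolded protein response had 5 positive and 9 negative changes in CBR against DMSO. CBR+SAM had 4 positive and 10 negative ones against CBR, and 2 and 12 against DMSO, with a median of -0.15. Without CBR+SAM replicate 2 the counts were 9 and 5 against CBR, and 5 and 9 against DMSO with a median of -0.03. Against CBR they were 5 and 9 without CBR+SAM replicate 1 or CBR replicate 2, and 3 and 11 without CBR replicate 1. Against DMSO they were 3 and 11 without CBR+SAM replicate 1, DMSO replicate 1 or DMSO replicate 2, with medians of -0.23, -0.17 and -0.07. The chaperone gene Hspa5 (BiP) stood at 60.4 and 40.1 in CBR+SAM, 66.3 and 70.5 in CBR, and 69.1 and 78.6 in DMSO. Both CBR+SAM libraries were the lowest of the 6, with log2 changes of -0.47 against CBR (95% interval -0.96 to 0.03) and -0.57 against DMSO (interval -1.07 to -0.08, adjusted p = 1 by limma). Hspa5 was the 1 gene of the 78 at an unadjusted p under 0.05 in CBR+SAM against DMSO, against 1.00% of all genes higher and 1.13% lower. Hsp90b1 had changes of 0.19 in CBR against DMSO (interval -0.19 to 0.58) and -0.35 in CBR+SAM against CBR (interval -0.74 to 0.04), and Pdia6 one of -0.35 in CBR+SAM against DMSO (interval -0.74 to 0.04). Syvn1 had a change of -0.26 in CBR against DMSO (interval -0.75 to 0.24). Among partner and related factor genes, Batf3 had changes of -0.48 in CBR against DMSO (interval -1.40 to 0.45) and 0.60 in CBR+SAM against CBR (interval -0.33 to 1.52), Crebzf changes of 0.62 in CBR+SAM against CBR (interval -0.20 to 1.43) and 0.50 in CBR+SAM against DMSO (interval -0.32 to 1.31), Atf1 one of 0.19 in CBR against DMSO (interval -0.23 to 0.61), and Cebpb one of -0.24 in CBR+SAM against DMSO (interval -0.75 to 0.27).

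**Figure D5:**
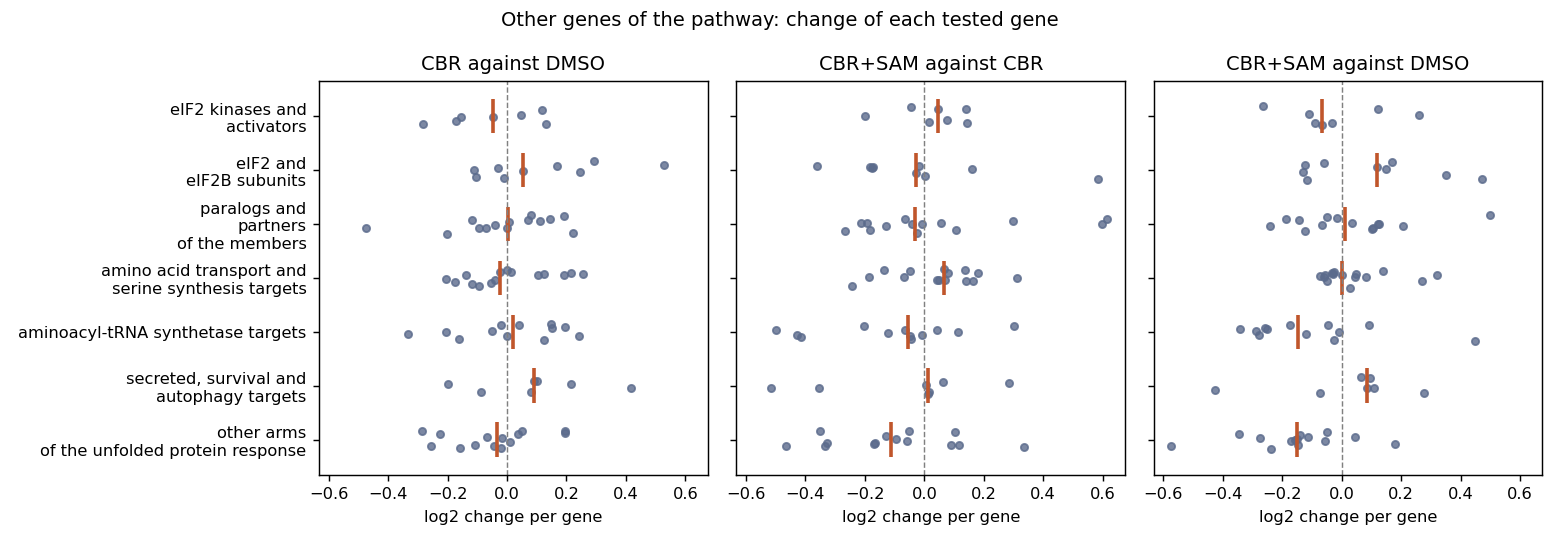
Fitted log2 change of each of the 78 tested genes in 7 lists around the pathway, 1 point per gene, with an orange bar at the median of a list, for CBR against DMSO, CBR+SAM against CBR and CBR+SAM against DMSO from left to right. Points of every list lie on both sides of 0 in all 3 comparisons, and list medians lie between -0.15 and 0.12.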

How the data were processed

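The authors deposited 1 signal value per gene and library. Per the submitters' processing notes, fastp, kallisto, DESeq2 and the build mm10 were used, with roles, versions and settings not given in the sources used here. The columns do not share 1 sum, and the scaling behind them is not given in the sources used here. Records were matched to symbols in GENCODE M21, 35768 of 36065, and the 2 Ddit3 records were summed. Using R 4.3.3, log2(signal + 1) was modelled for all 6 libraries at once by limma 3.58.1, trend on, over 12248 genes with a signal of at least 1 in at least 2 libraries. The added 1 makes fold changes of low genes look smaller. The p-values reflect only the spread between replicate libraries of all groups, with each gene's spread moderated toward that of genes at similar signal. No permutation of 2 against 2 can go below 0.333. The fit was checked on simulated data. Copies of the members were searched with blastn 2.17.0 at 90% identity over 200 bases, and 0 were found in other genes. The short Ddit3 record has 105 bases, so this search could not find copies of it. Members and lists were chosen with earlier results of these data known. By the naming rule the text gives all members, the kinases, Phgdh, Psat1, Psph and Ppp1r15b, and the 2 genes with the smallest p in each list and comparison. Chac2, Sesn1, Sesn3, Trib1, Trib2, Jdp2, Ddit4l, Eif2s2, Fgf21, Gdf15 and Bbc3 were named after their values were seen.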

Additional observations from a re-analysis of the deposited data

How the results depend on the processing

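Under 14 alternatives per comparison no member was called. Of 69 values of single members in each comparison, 67 kept their direction in CBR against DMSO, 61 with CBR+SAM set against CBR and 64 with it set against DMSO. Many of these values could not turn. No filter, a mean of at least 10, the replicate block and the 4 compared libraries alone leave a member's change as it was. So do leaving out a library of the group not compared and, for members other than Ddit3, the choice of Ddit3 record. The counts therefore do not measure how stable the directions are. With the highest Ddit3 record alone, Ddit3 changed sign to -0.20 in CBR against DMSO and to 0.26 in CBR+SAM against CBR. The other reversals came from leaving out 1 library. The changes then ran from -0.38 to 0.065 for Atf4 in CBR against DMSO, from -0.14 to 0.25 for Atf4, -0.35 to 0.24 for Ddit3, -0.64 to 0.068 for Asns and -0.25 to 0.48 for Ddit4 in CBR+SAM against CBR, and from -0.32 to 0.12 for Atf4, -0.19 to 0.40 for Ddit3, -0.17 to 0.56 for Ddit4 and -0.26 to 0.046 for Ppp1r15a in CBR+SAM against DMSO. Over all genes, the number called ran from 0 to 2, from 0 to 8 and from 0 to 3 when a library was left out, against 0, 1 and 1. The highest counts came without DMSO replicate 2, without CBR+SAM replicate 1 and without DMSO replicate 2, in that order of comparisons. It was 1 in CBR against DMSO with the 4 compared libraries alone. It was 0 in both comparisons with CBR+SAM with a pseudocount of 0.1, without a filter, and with a mean of at least 10, where Asns was not tested. Genes at an unadjusted p under 0.05 numbered 259, 378 and 261, and with the replicate block 356, 553 and 339, with 0, 1 and 1 called. The labels number the replicates and do not say whether same-numbered libraries belong together. Over genes, deviations of same-numbered libraries had correlations of 0.0908 between CBR+SAM and CBR, 0.218 between CBR+SAM and DMSO and 0.392 between CBR and DMSO. Under the block Ppp1r15a had an adjusted p of 1, 0.904 and 1 by limma. Rescaling each library to 1 common sum moved the median of all genes to -0.04, -0.02 and -0.08, and turned no member. Leaving out single libraries for the gene lists was chosen after seeing the data. Depth limits the low members most: Trib3 rests on 0 to 10 estimated reads per library.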
